A study of Mus musculus with 9 samples.

Results

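Trem2, Tyrobp, Axl, Mertk, Tyro3, Gas6 and Pros1 are 7 genes of phagocytic recognition: receptors, an adaptor and ligands through which microglia and other cells bind apoptotic material. They were taken by symbol from the UMI count files of 9 mouse Drop-seq libraries, where all 7 members are among the 12957 symbols listed in every file. Drop-seq captures single cells on barcoded beads in droplets and counts each transcript by its unique molecular identifier (UMI). A PDOX is a patient's glioblastoma implanted as organoids into a mouse brain, in which the tumor cells are human. The labels give the PDOX cells counted here as mouse cells, and whether human cells remained among them was not tested. The groups were 7 untreated PDOXs (P3, P8, P13, T16, T101, T192, T233), 1 temozolomide-treated PDOX (P3TMZ) and 1 normal brain that carried no tumor (Nu-NB). All hosts were of the Nude strain, which lacks mature T cells, and ages were not given in the sources used here. T192 and T233 came from the same patient, and temozolomide is an alkylating drug that P3TMZ received, while the labels give P3, of the same tumor, as untreated.

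TREM2 binds lipids, lipoproteins and dying cells, has almost no cytoplasmic signaling part of its own, and signals through TYROBP (DAP12), an adaptor with an ITAM motif that recruits the kinase SYK. AXL, MERTK and TYRO3 form the TAM family of receptor tyrosine kinases. They do not touch a dying cell directly but bind the vitamin K-dependent bridging proteins GAS6 and PROS1 (protein S). AXL binds GAS6, while MERTK and TYRO3 bind both. The bridging proteins in turn bind exposed phosphatidylserine. In the healthy brain MERTK is known from microglia and astrocytes, while AXL is known to be induced in inflamed tissue.

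Libraries held 722 to 2770 kept cells, and 14622 cells were clustered with the 7 members and the pathway genes below left out of the clustering. Median depth was 518 to 1274 UMIs per cell, and 10 of 14612 kept barcodes occurred in more than 1 library. Cells of P8 and Nu-NB had been purified by FACS and those of the other libraries by MACS, and the files of P8 and Nu-NB also use older gene symbols, so that sort and symbol release cannot be told apart. P8 is thus the only PDOX that shares the handling of Nu-NB. Myeloid-like cells numbered 4088. Clusters with Spp1 among their top 10 genes, called Spp1-led, held 2499 of them. They were a cluster led by Lpl, Spp1 and Itgax (1822 cells, median 494 UMIs) and another led by Ch25h, Cxcl13 and Ccl4 (677 cells, median 3060 UMIs). Sums over both thus lean to the deeper cells. Other clusters were led by P2ry12, Gpr34 and Tmem119 (1291 cells) and by Mrc1, F13a1 and Lyve1 (99 cells). A further cluster was led by Cd74, Rps12 and Apoc1 (199 cells, of which 191 were of P8). All 12 myeloid markers were detected in the myeloid-like cells of every library, with a summed level of 33033 to 39643 CPM (counts scaled to a common total of UMIs, per 1e6) in PDOXs and 39949 CPM in Nu-NB. Markers of other cells were also found in these sums. Astrocyte markers (4 to 10 of 10 detected) summed to 106 CPM in P3 to 1221 CPM in P13 against 1013 CPM in Nu-NB. Mural markers (0 to 10 of 10 detected) summed to 0 to 555 CPM in PDOXs against 59.3 CPM. Choroid plexus markers, of which 2 to 8 of 8 were detected, summed to 288 CPM in T101 and 11468 CPM in P3 against 183 CPM in Nu-NB, endothelial markers (4 to 11 of 11 detected) to 288 to 857 CPM against 46.4 CPM, OPC markers (3 to 6 of 6) to 144 to 551 CPM against 67 CPM, and erythrocyte markers (0 to 4 of 4 detected) summed to 0 to 437 CPM in PDOXs against 2816 CPM in Nu-NB. Their part in the results below was not tested.

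The members lie on 5 mouse chromosomes of GRCm38, and Tyrobp and Axl share chromosome 7. Trem2 spans chr17:48346401-48354147, Tyrobp chr7:30413760-30417585, Axl chr7:25757273-25788705 and Mertk chr2:128698956-128802894. Tyro3 spans chr2:119797733-119818104, Gas6 chr8:13465374-13494490 and Pros1 chr16:62854307-62929346. RefSeq promoter sequences (GRCm38.p6) were found for 6 of the 7 members, all but Tyrobp. The 250 bases before the start are shown for Trem2 and for the TAM receptors Axl and Mertk, the 3 receptors on which the results turn, read 5′ to 3′ on the strand of the gene. They come from chr17:48346151-48346400 (plus strand), chr7:25788734-25788983 (minus strand) and chr2:128698665-128698914 (plus strand). Capitals mark GAGGAA or its reverse complement, the core bound by ETS factors such as PU.1 of myeloid cells, and TGANTCA. With N as any base, TGANTCA is looser than the AP-1 motif, which has G or C at N.
Trem2: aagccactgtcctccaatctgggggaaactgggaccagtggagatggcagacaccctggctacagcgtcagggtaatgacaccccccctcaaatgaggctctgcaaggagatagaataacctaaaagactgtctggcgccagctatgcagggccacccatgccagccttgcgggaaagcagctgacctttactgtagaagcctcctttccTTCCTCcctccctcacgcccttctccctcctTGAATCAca
Axl: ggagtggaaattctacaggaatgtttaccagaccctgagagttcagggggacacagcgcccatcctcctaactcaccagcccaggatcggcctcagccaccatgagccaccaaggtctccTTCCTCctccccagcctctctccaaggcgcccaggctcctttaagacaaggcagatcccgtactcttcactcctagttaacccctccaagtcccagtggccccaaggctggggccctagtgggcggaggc
Mertk: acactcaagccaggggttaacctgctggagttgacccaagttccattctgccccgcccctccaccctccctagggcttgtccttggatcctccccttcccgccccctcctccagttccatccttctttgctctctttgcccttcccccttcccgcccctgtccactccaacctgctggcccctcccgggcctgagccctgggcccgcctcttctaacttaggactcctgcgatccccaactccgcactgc
Both strands were searched, and the motifs do not overlap each other. The Trem2 sequence held GAGGAA on the opposite strand, 40 to 35 bases before the start, and TGANTCA 9 to 3 bases before it. The TGANTCA match has A at N and so is not the AP-1 motif itself. GAGGAA stood on the opposite strand of the Axl sequence, 130 to 125 bases before the start, and the Mertk sequence held neither motif. Of 32851 promoter windows of the same length, 23.3% held GAGGAA and 6.75% TGANTCA, so such matches are a description only.

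Trem2 and Tyrobp had their highest median level in myeloid-like cells, at 1562 and 4435 CPM. Among classes with at least 10 cells in 3 or more PDOXs, choroid plexus-like cells came next in median (870 and 2121 CPM) and mural-like cells after them (359 and 627 CPM), and the range of both classes over PDOXs overlapped with that of myeloid-like cells. Ependymal-like cells, of which T16 and P13 alone had at least 10, held Trem2 at 699 and 685 CPM and Tyrobp at 1252 and 1189 CPM. In PDOXs, 70.8% of all Trem2 UMIs and 73.7% of all Tyrobp UMIs came from myeloid-like cells, which were 25.6% of cells. Axl had 70.9% of its UMIs there, Pros1 52.1%, Mertk 48.1% and Gas6 30.1%. Classes were made from these cells, so their order is a description with no test. Within such sums, fewer cells that transcribe a gene and less RNA per cell cannot be told apart. The totals of UMIs and cells include unnamed clusters. Clusters led by Cnot2 and Rab3ip (703 cells) and by H4c3 and Gm17511 (1008 cells) had 0 cells in Nu-NB. Their origin was not tested.

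Transcripts of myeloid markers were also counted in cells of other classes, and a within-library ratio was used to set members against them. From which cells these transcripts came was not tested. The myeloid markers present in another class were counted, and each member was given the number of UMIs that would come with them at the member-to-marker ratio of the same library's myeloid-like cells. Over 6 PDOXs, astrocyte-like cells held 123 Trem2 UMIs against 97.2 at this ratio and 204 Tyrobp UMIs against 224. Endothelial-like cells of 7 PDOXs held 69 Trem2 UMIs against 91.1 and 180 Tyrobp UMIs against 215. In these classes and in OPC-like cells (oligodendrocyte precursors), the receptor was at 0.758 to 1.31 times and its adaptor at 0.838 to 0.963 times the amount at the myeloid ratio. The name of the mural-like class did not hold in every library. Its myeloid markers summed to 33164 CPM in T233, 33071 CPM in P3 and 30719 CPM in T192, against 2906, 7547 and 5603 CPM of mural markers, whereas P8 had 666 CPM of myeloid and 28286 CPM of mural markers. Trem2 followed, at 1857 CPM in T233 and 35.7 CPM in P8. In the ependymal-like cells of T16 and P13 myeloid markers (22541 and 19665 CPM) were also above those of the class (2650 and 2495 CPM). In choroid plexus-like cells the markers of the class led in 6 of 6 PDOXs, but myeloid markers summed to 11556 CPM in T16 to 31983 CPM in P3, against 623 CPM in P8. Where a sum is largely myeloid its ratio must lie near 1, so the ratios of Trem2 and Tyrobp in these 3 classes are not read. Fibroblast-like cells held 8 Trem2 UMIs (0.68 times) and neuronal-like cells 9 (2.34 times), on too few counts to read.

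Mertk in astrocyte-like cells counted 614 UMIs against 27.1 at the myeloid ratio, 22.7 times as many, and was above it in 6 of 6 PDOXs. Axl in the same cells counted 108 UMIs against 19.3, 5.61 times as many, again in 6 of 6 PDOXs. Endothelial-like cells held Gas6 at 27.9 times and Pros1 at 26.2 times the myeloid ratio, each in 7 of 7 PDOXs, and Mertk at 6.52 times in 7 of 7. Choroid plexus-like cells held 566 Gas6 UMIs, 5.08 times the ratio in 6 of 6 PDOXs. Gas6 was also the 1 member whose highest median level lay in choroid plexus-like cells, at 343 CPM. OPC-like cells held Gas6 at 15.5 times and Pros1 at 17 times the ratio, on 43 and 85 UMIs and above it in 4 of 6 PDOXs.

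**Figure D1:**
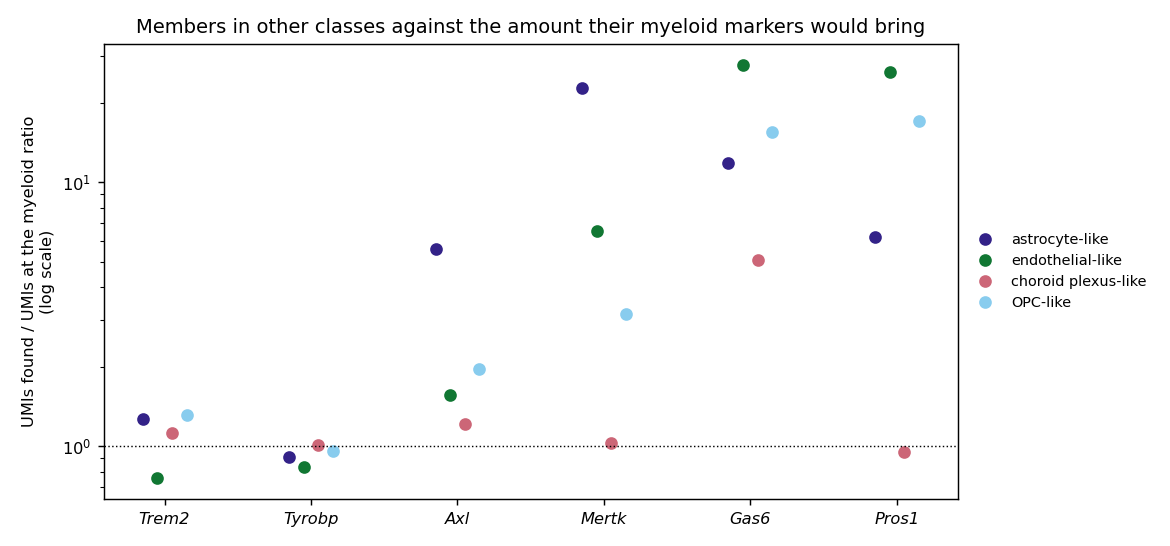
UMIs of 6 members in 4 non-myeloid classes, divided by the UMIs that the myeloid markers in that class would bring at the ratio of the same library's myeloid-like cells, summed over untreated PDOXs (log axis, dotted line at 1). Trem2 and Tyrobp lie between 0.758 and 1.31 in all 4 classes, of which choroid plexus-like cells hold many myeloid markers, while Mertk in astrocyte-like cells (22.7) and Gas6 (27.9) and Pros1 (26.2) in endothelial-like cells lie far above 1.

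Tyro3 was barely detected. Only 59 UMIs were counted over all kept cells of the 7 PDOXs, of which 21 were in astrocyte-like cells and 3 in myeloid-like cells. No Tyro3 UMI was found in 388118 UMIs of Nu-NB myeloid-like cells, and the exact 95% Poisson upper limit there is 9.5 CPM. Poisson and binomial intervals here cover counting error only. Tyro3 was left out of the tests by the filter on low counts in all 3 classes tested, and at this depth no difference was detectable.

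To ask how the myeloid cells of tumors differ from those of a normal brain, the UMIs of myeloid-like cells were summed in each library, and PDOX sums were tested against the Nu-NB sum. Mertk and Pros1 were lower in all 7 PDOXs, and Axl and Tyrobp were higher in all 7. Trem2 was higher in all 7 by a smaller amount, and Gas6 was lower in 5 and higher in 2. Tyrobp, Axl and Mertk were also on one side in all 7 with cells of at least 500 genes, with classes by markers and with the S100a8-led cluster added (described below), whereas Trem2 was then higher in 6, 4 and 6 PDOXs (T101 was below Nu-NB in all 3) and Pros1 lower in 5, 7 and 6. The genes were tested by edgeR's quasi-likelihood test with Benjamini-Hochberg adjustment over 9307 genes, at FDR ≤ 0.01 and |log2FC| ≥ 1, and no member passed. With a single Nu-NB library edgeR called 4 genes, 0.043% of those tested, while 1922 genes had an unadjusted p under 0.05. The 4, named after their values were seen, were Spp1, higher in PDOXs, and Hbb-bt, Gm17087 and Hlf, lower. DESeq2 on the same sums called 218 genes (2.34%; 4691 genes had no adjusted p), among them Axl and Tyrobp. Without P8 edgeR called 98 genes, without T16 10, and without T101, T192 or T233 2, none of them a member.

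Trem2, the lipid and apoptotic cell receptor, was at 974 CPM in Nu-NB myeloid-like cells (Poisson interval 878 to 1077) and ranged over PDOXs from 1025 CPM in P13 through a median of 1562 to 2147 CPM in T233. P13, T16 and T101 lay within the counting error of Nu-NB, and the other 4 PDOXs lay above it. The log2FC was 0.86 ± 0.55 (SE; edgeR, adjusted p = 0.387), and 0.89 by DESeq2 (adjusted p = 0.255). In P8, which was sorted like Nu-NB, Trem2 was 1.98 times the Nu-NB level (1.78 to 2.21).

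Tyrobp, the ITAM adaptor, was at 763 CPM in Nu-NB (678 to 855) and at 1964 CPM in P13, 4435 CPM at the median and 5291 CPM in T233. Every PDOX lay clear of Nu-NB, and T16, at 2157 CPM, and P13 were the lowest PDOXs. The log2FC was 2.50 ± 0.75 (SE), a 5.65-fold difference, which edgeR did not call (adjusted p = 0.0931) and DESeq2 did (adjusted p = 0.0017). P8 alone was 5.81 times as high as Nu-NB (5.17 to 6.56).

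Axl, the TAM receptor known from inflamed tissue, counted 6 UMIs in 662 Nu-NB myeloid-like cells, 15.5 CPM (5.67 to 33.6). PDOXs ranged from 83.2 CPM in T16 through a median of 352 to 579 CPM in T192, and no PDOX interval reached that of Nu-NB. The log2FC of 4.48 ± 1.13 (SE) was the largest among members, with an adjusted p of 0.0695 by edgeR, 0.0231 to 0.1 when single PDOXs were left out, and 0.000328 by DESeq2. In P8 the ratio to Nu-NB was 22.8 (10.4 to 62.4).

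Mertk, the TAM receptor of resting microglia, was at 1224 CPM in Nu-NB (1116 to 1339) and between 195 CPM in P3 and 551 CPM in T16, with a median of 393 CPM. All 7 PDOXs lay below Nu-NB with no overlap of intervals. The log2FC was -1.58 ± 0.45 (SE), a level 2.99 times as high in Nu-NB, with an adjusted p of 0.0822 by edgeR and 0.033 by DESeq2. Nu-NB was 2.33 times as high as P8 (2.07 to 2.62). Of the 5 members tested other than Gas6, Mertk and Pros1 were lower and Trem2, Tyrobp and Axl higher in every PDOX, beside 27.9% of all tested genes that were lower and 12.5% that were higher in every PDOX. A one-sided exact permutation test of a single gene with 7 PDOXs and 1 Nu-NB cannot give a p below 0.125, and none is given.

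Of the ligands, Gas6 was at 144 CPM in Nu-NB (109 to 187) and from 75.9 CPM in P8 to 224 CPM in P13. Its median was 110 CPM, and Nu-NB lay inside the range of PDOXs. In P8, which was sorted like Nu-NB, Gas6 was 0.526 times the Nu-NB level (0.377 to 0.741). Its log2FC was 0.06 ± 0.54 (SE; edgeR adjusted p = 0.974), and the sign changed without P13. Pros1 was at 335 CPM in Nu-NB (280 to 398) and from 134 CPM in P13 to 327 CPM in P8, with a log2FC of -0.40 ± 0.46 (SE; adjusted p = 0.653). T192, T16 and P13 lay below the counting error of Nu-NB, while P8 and Nu-NB did not differ in Pros1 beyond it (ratio 0.977, 0.803 to 1.2).

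**Figure D2:**
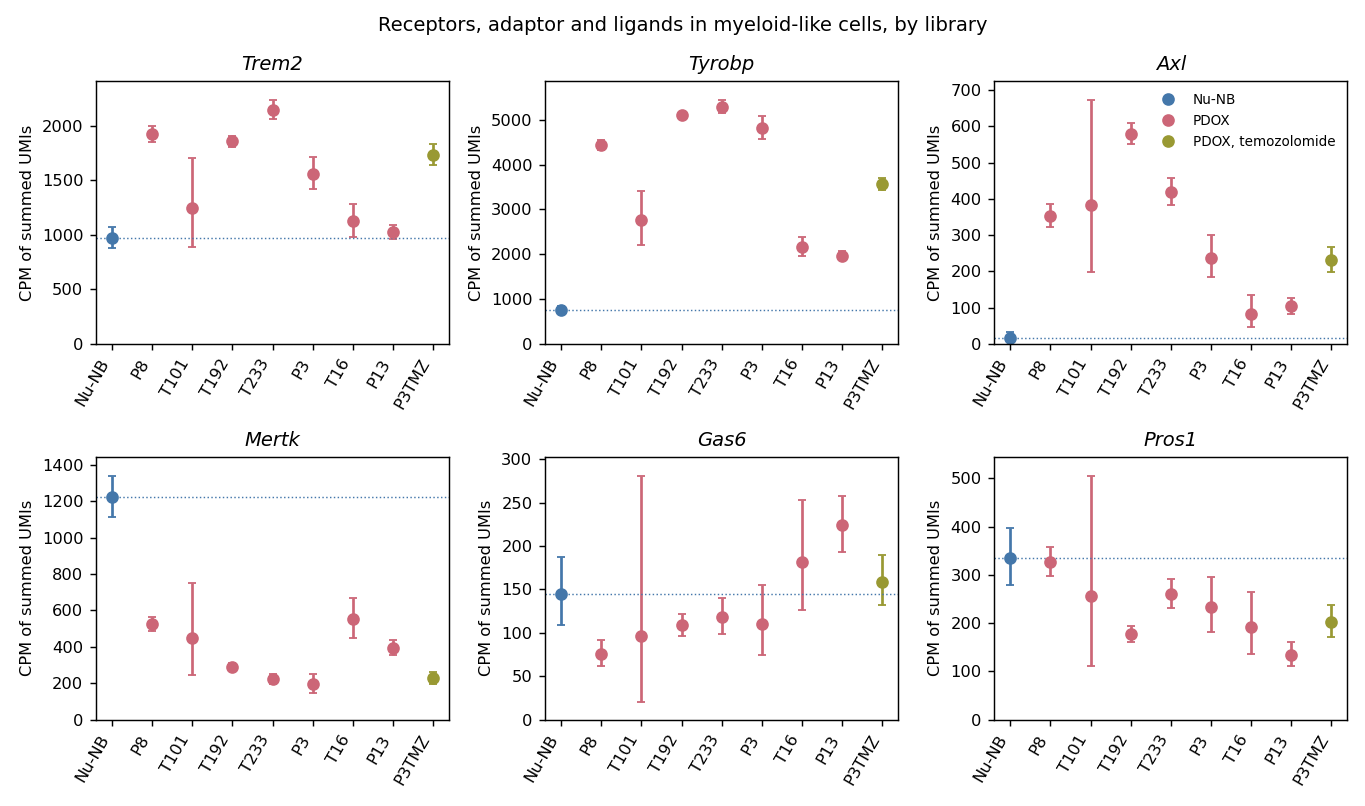
CPM of summed UMIs in myeloid-like cells by library for 6 members, with exact 95% Poisson intervals that cover counting error only; blue is Nu-NB (dotted line), red the 7 PDOXs and olive P3TMZ. Tyrobp and Axl lie above Nu-NB and Mertk below it in every PDOX, while Gas6 of Nu-NB lies inside the range of PDOXs.

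Depth differed between libraries, so cells were also thinned to 500 UMIs each and shallower cells were left out (354 of 662 myeloid-like cells in Nu-NB, 1126 of 3102 in PDOXs). At equal depth a Mertk UMI was found in 40.9% of Nu-NB myeloid-like cells (exact binomial interval 35.4 to 46.6, n = 308) and in 9% of cells of T233 to 24.3% of T16, median 12.5%. Axl was found in 2 of 308 Nu-NB cells, 0.649% (0.0787 to 2.33), and in 2.49% of P13 to 25% of T101, where 24 cells remained. Tyrobp was found in 31.2% of Nu-NB cells and in 52.7% to 90.5% of those of PDOXs, and Trem2 in 37.3% and in 37.6% to 65.6%. Axl, Tyrobp and Trem2 were higher and Mertk lower at equal depth in 7 of 7 PDOXs, but Trem2 of P13 (37.6%) and T16 (38.2%) lay within the interval of Nu-NB (31.9 to 43). Without thinning, Axl was found in 0.604% and Mertk in 43.7% of Nu-NB myeloid-like cells. Endothelial-like cells of PDOXs, which should lack Trem2, held it in 1.04% of thinned cells (0.568 to 1.73) and Tyrobp in 2.52%, with a median depth of 739 UMIs beside 750.5 in the myeloid-like cells.

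Detection of pairs in the same cell was counted next. Of the thinned Nu-NB cells, 125 held Mertk only, 1 Axl only and 1 both. T192 held 123 cells with Axl only, 55 with Mertk only and 19 with both among 594. Trem2 and Tyrobp together were found in 10.1% of Nu-NB cells and in 19.9% of P13 to 57.2% of T233. At 500 UMIs a missing UMI does not show that a cell lacks the transcript.

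The make-up of UMIs within one library does not depend on the scaling between libraries. Axl gave 1.25% of the Axl and Mertk UMIs of Nu-NB myeloid-like cells (0.459 to 2.69). In PDOXs the share was 13.1% in T16, 20.8% in P13, 40.2% in P8, 46.2% in T101, 54.8% in P3, 65.4% in T233 and 66.7% in T192. Tyrobp gave 43.9% of the Tyrobp and Trem2 UMIs in Nu-NB (40.1 to 47.8) and 65.7% to 75.5% in PDOXs, with a median of 69.7%. Both shares were higher in all 7 PDOXs than in Nu-NB, with intervals that did not overlap, and the first varied far more among PDOXs than the second. They describe libraries and not which of 2 genes is transcribed more, since gene length was not taken into account.

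**Figure D3:**
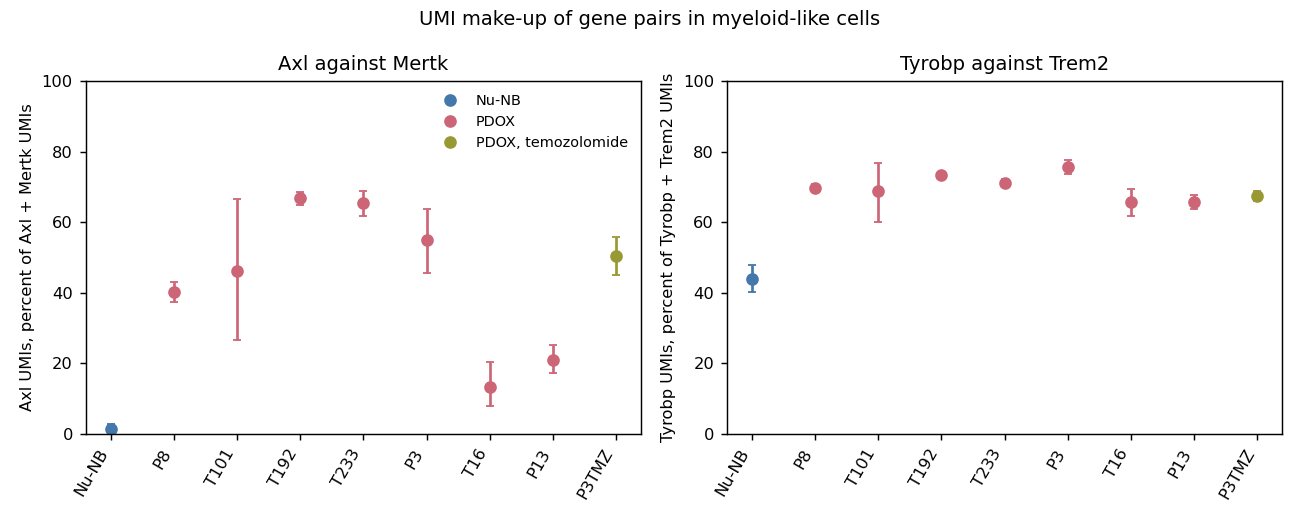
Share of Axl among Axl and Mertk UMIs (left) and of Tyrobp among Tyrobp and Trem2 UMIs (right) in myeloid-like cells of each library, in percent with exact 95% binomial intervals. Axl runs from 1.25% in Nu-NB through 13.1% in T16 to 66.7% in T192, and Tyrobp from 43.9% in Nu-NB to between 65.7% and 75.5% in PDOXs.

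The mixture of myeloid clusters moved with these differences. The P2ry12-led cluster made up 94.4% of myeloid-like cells in Nu-NB, 54.5% in P13 and 55.6% in T16, but 4.15% in T192 to 33.3% in T101 in the other 5 PDOXs. The Spp1-led clusters made up 1.21% in Nu-NB and 31.2% in T16 to 94.9% in T233. T16 and P13 were also the PDOXs with the lowest Axl, Tyrobp and Trem2. In P8 the Cd74-led cluster, at 191 of 548 myeloid-like cells, held 1146832 of the 1396037 UMIs of the sum, with Trem2 at 1924 CPM, Tyrobp at 4587 CPM, Axl at 371 CPM and Mertk at 523 CPM. Without that cluster edgeR called 2 genes and no member, and Axl (log2FC 4.47) and Mertk (-1.52) differed as before, while the members with every PDOX on one side of Nu-NB went from 5 to 4. The part of the mixture in the differences was not tested as such, and levels within each cluster follow.

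Inside the P2ry12-led cluster, Mertk was at 1293 CPM in Nu-NB and at 357 CPM in T192, 629 CPM at the median and 806 CPM in P8, lower in 7 of 7 PDOXs, with the interval below that of Nu-NB in 6, all but T233. Tyrobp was at 749 CPM in Nu-NB and 1411 CPM in P13 to 3130 CPM in P3, with the interval above Nu-NB in 7 of 7. Trem2 was at 1025 CPM in Nu-NB and 1101 CPM in P13 to 2217 CPM in P3, higher in 7 of 7 but with the interval above Nu-NB in 2 (P8 and P3). Axl counted 6 UMIs in 625 Nu-NB cells and no UMI in T101, and in P8, at 97.3 CPM, and T192, at 312 CPM, its interval lay above that of Nu-NB. In this one cluster 2 members (Trem2 and Tyrobp) were higher and 1 (Mertk) lower in every PDOX, beside 10% and 15.4% of 1897 genes tested. The edgeR test on its sums, chosen after the result of the whole class was seen, called 1 gene (0.0527%) and no member, with a log2FC of -1.21 ± 0.51 (SE; adjusted p = 0.33) for Mertk, 1.25 ± 0.55 (SE; adjusted p = 0.347) for Tyrobp and 2.17 ± 1.11 (SE; adjusted p = 0.429) for Axl. It rests on 563 cells in PDOXs, 18 to 226 per library.

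Within PDOXs, the Spp1-led clusters held more Axl and more Tyrobp than the P2ry12-led cluster of the same library in 7 of 7 PDOXs. Axl was at 86.4 CPM in T16, 137 in P13, 246 in P3, 333 in P8, 419 in T233, 532 in T101 and 582 in T192, so T16 and P13 were lowest within these clusters too. Mertk was lower in the Spp1-led clusters in 7 of 7 PDOXs, at 180 CPM in P3 to 444 CPM in T16, though in T101 the values were 444 and 460 CPM on 10 and 4 UMIs. Trem2 had no common direction, higher in P8, T192, T233 and T16 and lower in the other 3. Since clusters were drawn from these cells, the comparison is a description without a test.

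**Figure D4:**
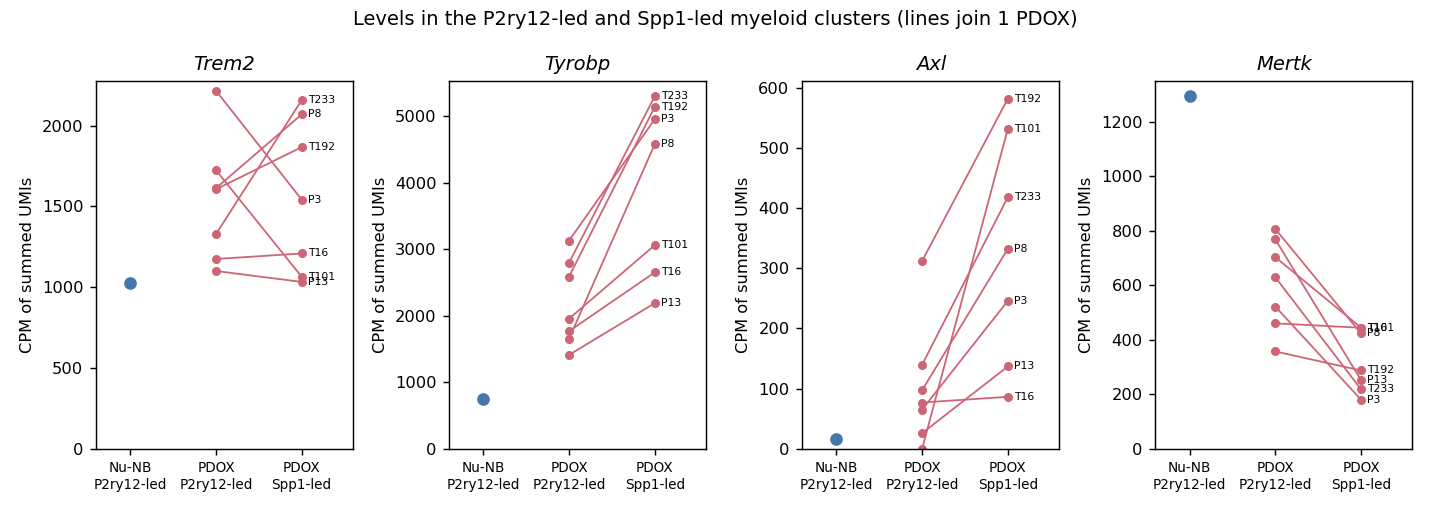
CPM of 4 members in the P2ry12-led cluster of Nu-NB (blue) and in the P2ry12-led and Spp1-led clusters of the 7 PDOXs (red, a line joins the clusters of 1 PDOX). Axl and Tyrobp lie higher and Mertk lower in the Spp1-led clusters of all 7 PDOXs, Mertk lies below Nu-NB (1293 CPM) in every PDOX, and Trem2 has no common direction between clusters.

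Other clusters with myeloid markers were described in the same way. The cluster led by Mrc1, F13a1 and Lyve1, named border-associated macrophage-like, held Gas6 at 843 CPM in Nu-NB (17 UMIs), 729 CPM in T192 (8 UMIs), 839 CPM in T16 (15 UMIs) and 527 CPM in P13 (15 UMIs). These values lay above those of the P2ry12-led cluster in each of these libraries (108, 89.2, 76.9 and 207 CPM). Its Trem2 was at 198, 1184, 560 and 246 CPM, on 4 to 13 UMIs. An unnamed cluster of 542 cells, led by H2-Ab1, S100a8, Ly6c2 and Ccr2 and mostly of T101 (334 cells), held Tyrobp at 1398 to 1995 CPM and Trem2 at 243 to 798 CPM in the 4 PDOXs with at least 10 cells. Its Axl was at 306 CPM and its Mertk at 294 CPM in T101, where 76 and 73 UMIs were counted. An unnamed cluster of 416 cells led by the proliferation genes Mki67 and Top2a, in which 97.8% of cells held at least 2 myeloid markers, was mostly of P13 (235 cells) and T16 (111 cells). Its Trem2 was at 759 and 636 CPM, its Axl at 122 and 86.4 CPM and its Mertk at 319 and 427 CPM in these 2 libraries. In the other PDOXs with at least 10 such cells, P8 (19 cells) and T192 (25 cells), Trem2 was at 921 and 1578 CPM, Axl at 64.6 CPM (4 UMIs) and 389 CPM, and Mertk at 275 and 238 CPM.

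Astrocyte-like cells were compared over 6 PDOXs, since P3 held fewer than 10 such cells. Mertk was at 401 CPM in Nu-NB (352 to 455) and at 95.1 CPM in T101, 230.2 CPM at the median and 426 CPM in P13, lower in 5 of 6. P8 (378 CPM), P13 and T233 (302 CPM, 13 UMIs) lay within the counting error of Nu-NB, and T192 (129 CPM), T16 (159 CPM) and T101, on 3 UMIs, lay below it. The log2FC was -0.63 ± 0.55 (SE; edgeR adjusted p = 0.688). At equal depth a Mertk UMI was found in 16% of Nu-NB astrocyte-like cells (12.9 to 19.6), in 17.3% of 481 cells of P8 and in 19.5% of 696 cells of P13. The share was 11.3% of 80 cells in T192, 6.9% of 29 in T233 and 6.25% of 160 in T16 (3.04 to 11.2), and none of 15 in T101, so it was higher in 2 and lower in 4 of 6 PDOXs. Axl was at 42 CPM in Nu-NB and 39 to 152 CPM in PDOXs (log2FC 0.77 ± 0.63, SE; adjusted p = 0.672), Gas6 at 65.5 CPM and 52.6 to 123 CPM, and Pros1 at 25.2 CPM (15 UMIs) and 28 to 95.1 CPM (log2FC 0.94 ± 0.67, SE; adjusted p = 0.611).

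In these cells edgeR called 0 of 5851 genes (0%), with 679 at an unadjusted p under 0.05, and DESeq2 called 3, while edgeR called 19 without P8 and 1 without T192, none of them a member. Tyrobp (32.7 to 492.7 CPM against 5.04 CPM, 3 UMIs) and Pros1 were higher in 6 of 6 PDOXs, beside 14.4% of all genes tested, and no member was lower in all 6, beside 19.1%. Myeloid markers summed to 658 to 4151 CPM in astrocyte-like cells of PDOXs against 576 CPM in Nu-NB, and Tyrobp was near the myeloid ratio there, as given above.

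Endothelial-like cells of Nu-NB numbered 36, with 1 UMI each of Trem2, Mertk and Gas6, 4 of Pros1 and none of Tyrobp or Axl, so the contrast rests on very few counts. In PDOXs Gas6 was at 29.8 CPM in P3, 146 CPM at the median and 208 CPM in P8, and Pros1 at 72.9 CPM in T192, 102 CPM at the median and 179 CPM in P3. P3 was thus lowest in Gas6 and highest in Pros1. Neither passed against Nu-NB by edgeR (adjusted p = 0.628 and 0.785), which called 0 of 5497 genes (0%) with 603 at an unadjusted p under 0.05, while DESeq2 called 2. Tyrobp was above Nu-NB and Pros1 below it in all 7 PDOXs, beside 35% and 27.7% of all genes tested.

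Partners, signaling genes and bridges of these receptors were followed in myeloid-like cells by 6 lists. Of 84 listed genes 61 were tested, edgeR called 0 of them (0.043% of all genes) and DESeq2 called 3 (2.34% of all genes), all higher in PDOXs and all in the list of TREM2 ligands. That list had a median log2FC of 3.52 over 4 genes beside 0.04 over all genes. Apoe encodes the main apolipoprotein of brain, a TREM2 ligand. It was at 5099 CPM in Nu-NB and 11658 CPM in P13 to 44641 CPM in P8. Its log2FC was 2.68 ± 0.85 (SE), which edgeR did not call and DESeq2 did. Apoc1, another apolipoprotein, counted 3 UMIs in Nu-NB and reached 116 CPM in P13 to 1105 CPM in P8 (DESeq2 adjusted p = 1.83e-05), and Lgals3, which encodes galectin-3, counted 3 UMIs and reached 10.4 CPM in T16 to 206 CPM in T233 (DESeq2 adjusted p = 0.0032). Clu, for clusterin, was at 97.9 CPM in Nu-NB and 64 to 265 CPM in PDOXs.

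The list of TREM2 signaling and shedding genes had 17 of 18 genes tested, of which 10 were lower and 0 higher than Nu-NB in every PDOX (27.9% and 12.5% of all tested genes), with a median log2FC of -0.51, and no gene of it passed either test. Inpp5d, whose lipid phosphatase SHIP1 restrains this pathway, was at 368 CPM in Nu-NB and 117 to 198 CPM in PDOXs (log2FC -1.11 ± 0.38, SE; edgeR adjusted p = 0.127). Syk, the kinase recruited by TYROBP, was at 160 CPM and 38.5 to 93.6 CPM, and Adam10 and Adam17, the proteases that shed TREM2, were at 291 and 167 CPM in Nu-NB and at most 285 and 152 CPM in PDOXs. The genes of highest mean level were Grb2 (340.1 CPM in Nu-NB, 251 to 512 CPM in PDOXs), Lyn (505 and 147 to 384 CPM) and Ptpn6 (265 and 151 to 320.2 CPM). These are the same sums in which Trem2 and Tyrobp were above Nu-NB in every PDOX.

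Among other DAP12 partners, with 6 of 13 genes tested and a median log2FC of 0.05, 1 gene was higher and 2 were lower in every PDOX, near the 12.5% and 27.9% of all tested genes. Siglech, a microglial sialic acid receptor, was at 1894 CPM in Nu-NB and 544 to 1341 CPM in PDOXs (log2FC -0.90 ± 0.45, SE; edgeR adjusted p = 0.269). Hcst, which encodes the related adaptor DAP10, was at 10.3 CPM in Nu-NB (4 UMIs) and 36.4 to 72.5 CPM in PDOXs (log2FC 2.73 ± 0.63, SE; edgeR adjusted p = 0.0526), and Clec5a, for a myeloid lectin receptor, lay on both sides of Nu-NB at 127 to 416 CPM. For TAM processing and signaling, 7 of 10 genes were tested with a median log2FC of 0.42, 2 of them higher in every PDOX (12.5% of all tested genes) and 0 lower (27.9%). Vkorc1, of the vitamin K cycle that GAS6 and PROS1 depend on, was at 64.4 CPM in Nu-NB and 67.6 to 209 CPM in PDOXs, higher in 7 of 7 (edgeR adjusted p = 0.218). Ifnar2 was at 399 CPM in Nu-NB and 260 to 512 CPM in PDOXs.

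Receptors and bridges outside the TAM family had 11 of 21 genes tested, a median log2FC of -0.04, 1 gene higher and 3 lower in every PDOX, near the 12.5% and 27.9% of all tested genes. Msr1, a scavenger receptor, was at 28.3 CPM in Nu-NB and 31.2 to 228 CPM in PDOXs (log2FC 2.62 ± 0.80, SE; edgeR adjusted p = 0.0967). Mfge8, a bridge from phosphatidylserine to integrins, was at 77.3 CPM and 0 to 40.8 CPM, and its receptor gene Itgav at 157 and 58.3 to 98.9 CPM, while Itgb5 (544 and 353 to 811 CPM) and Lrp1 (371 and 226 to 394 CPM) lay on both sides of Nu-NB. The engulfment list had 16 of 17 genes tested, a median log2FC of 0.48, 4 genes higher and 2 lower in every PDOX (12.5% and 27.9% of all tested genes). Elmo1, which activates Rac during engulfment, was at 600.3 CPM in Nu-NB and 76.9 to 268 CPM in PDOXs (log2FC -1.72 ± 0.47, SE; edgeR adjusted p = 0.0793), whereas Rac1 was at 155 and 160.1 to 387 CPM. Lamp1 (631 and 863 to 1441 CPM) and Cdc42 (567 and 624 to 853 CPM) were higher in 7 of 7 PDOXs, Lamp2 (484 and 320.2 to 723 CPM) in 4 of 7.

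The effect of temozolomide was asked from P3TMZ against P3, with 1 library on either side and no test. No member but Tyro3, which had 1 UMI on either side, differed by 2-fold in myeloid-like cells, beside 11.2% of 5945 genes of at least 20 UMIs. Tyrobp was at 3572 CPM in P3TMZ (324 cells) and 4821 CPM in P3 (270 cells), a ratio of 0.741 (exact interval 0.694 to 0.791). Trem2 was at 1735 and 1562 CPM (ratio 1.11, 0.997 to 1.24), Axl at 230.2 and 236 CPM (0.974, 0.733 to 1.31) and Mertk at 226 and 195 CPM (1.16, 0.854 to 1.59). Of the ligands, Gas6 was at 159 and 110 CPM (1.45, 0.976 to 2.22) and Pros1 at 203 and 232.99 CPM (0.869, 0.649 to 1.17). Tyrobp was the member whose interval left out 1, and its ratio within the Spp1-led clusters was 0.736 (0.689 to 0.787).

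The P2ry12-led cluster was 31.8% of myeloid-like cells in P3TMZ and 9.26% in P3, and median depth was 913 and 472 UMIs. Choroid plexus markers in these myeloid-like sums were at 5414 CPM in P3TMZ and 11468 CPM in P3 (8 of 8 detected in both). Endothelial (208 and 857 CPM), mural (64.4 and 555 CPM) and OPC markers (116 and 144 CPM) were also lower in P3TMZ. Astrocyte markers were higher in P3TMZ, at 213 and 106 CPM, and the myeloid markers summed to 45580 and 39482 CPM. The part of the clusters, depth and markers in these ratios was not tested. At 500 UMIs per cell, Tyrobp was found in 80.8% of P3TMZ and 90.5% of P3 myeloid-like cells. Over all cells of the libraries Gas6 was at 146 CPM in P3TMZ and 85.6 CPM in P3, a ratio of 1.71 (1.29 to 2.3). Tyrobp over all cells was at 2550.1 and 2769 CPM, a ratio of 0.921 (0.871 to 0.973) that lay nearer to 1 than in myeloid-like cells, and Trem2 at 1254 and 912 CPM, a ratio of 1.37 (1.26 to 1.5). In endothelial-like cells Gas6 counted 10 UMIs and 6 UMIs (79.6 and 29.8 CPM). Pros1 in endothelial-like cells was at 71.7 and 179 CPM (ratio 0.401, 0.17 to 0.848, on 9 and 36 UMIs), and Tyrobp there at 31.9 and 104 CPM on 4 and 21 UMIs.

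**Figure D5:**
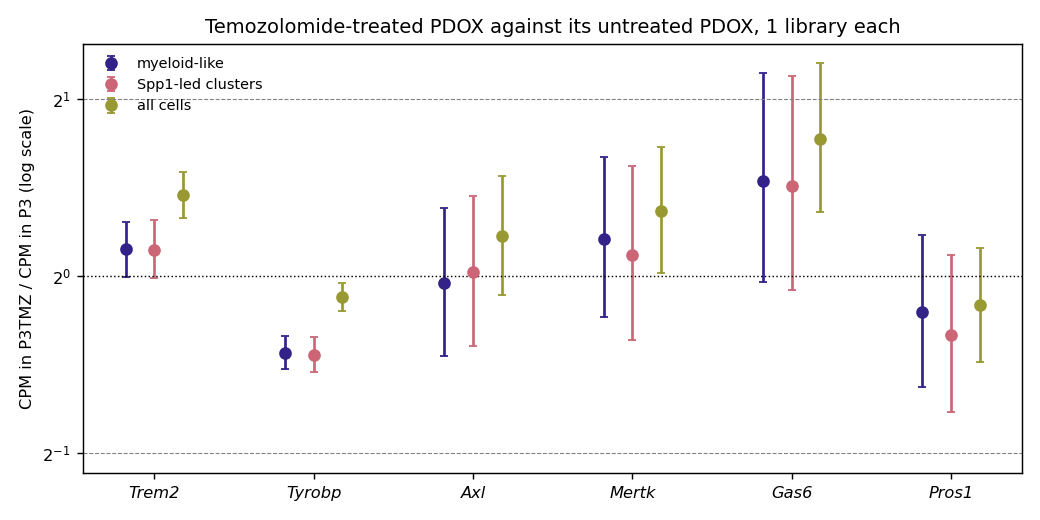
Ratio of CPM in P3TMZ to CPM in P3 for 6 members in myeloid-like cells, in the Spp1-led clusters and over all cells, with exact conditional 95% intervals (log axis; dotted line at 1, dashed lines at 2-fold). Tyrobp in myeloid-like cells (0.741) lies below 1 with its whole interval, and no plotted ratio passes 2-fold.

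Genes of like pattern were sought over 39 sums of class and library in untreated PDOXs with at least 30 cells, among 7360 genes, by Pearson's r of log2(CPM + 10). The sums share libraries and depth, and r is a description. Trem2 was most like Fcer1g (r = 0.96), Ctsz, Ctss and Ctsd, the Fc receptor and lysosomal genes of myeloid cells, and Tyrobp most like Ctsd (r = 0.98), Ctsz, Mpeg1 and Spp1. Axl was most like Lpl (r = 0.88), Ctsb, Grn, Itgb5 and Ctsz, and Mertk like Frmd4a (r = 0.86), Sirpa, Rin2, Ptgs1 and Hivep3. Pros1 was most like Mbnl1 (r = 0.79), Klf6, Ifngr1, Itm2b and Serinc3. Gas6 had the lowest likeness, to Folr1 (r = 0.65), Calml4, Tmem72, Lbp and Arsg, of which Folr1 marks choroid plexus, and Tyro3 was under the minimum mean of 20 CPM.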

How the data were processed

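Mouse-derived cells of 9 Drop-seq libraries were analysed. The authors mapped reads to the human and mouse genomes (mm10, GRCm38; bcl2fastq 2.0 and STAR in the submitters' processing notes) and deposited raw UMI counts per gene and cell barcode, without normalization. All values were whole. The members and gene lists were chosen with earlier results of these data known.

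Cells needed 200 detected genes and no more than 30% mitochondrial UMIs, and the 5% with the highest doublet score of each library were left out. Clustering used scanpy 1.11.5 and leidenalg 0.10.2 (2000 variable genes, 30 components, 20 neighbours, resolution 1), without batch correction and without members and list genes. Cluster borders moved slightly with numerical precision, so doublet scores (computed after scrublet), components and neighbours were computed in double precision with exact neighbours. With another precision the numbers of myeloid-like cells, and whether the Cd74-led cluster stood apart, differed. A cluster was named where 50% of its cells held 2 markers and 3 markers were in 10% of cells, a rule set after clusters were seen. It was left unnamed where another class had more markers among its top 10 genes.

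CPM and tests used genes listed in every file. CPM, and counts of PDOXs on one side of Nu-NB, were scaled by total UMIs only. The log2FC values carry the further scaling of edgeR or DESeq2, so a small difference can have another sign. Class sums of libraries with 10 or more cells of the class were tested with the quasi-likelihood test of edgeR 4.0.16 (filterByExpr, TMM, Benjamini-Hochberg adjustment) and, as an alternative, with DESeq2 1.42.0 on R 4.3.3. The fits were tested on simulated data. Of genes changed 4-fold, 14.9% were called in myeloid-like, 16.3% in astrocyte-like and 0% in endothelial-like sums. Of those changed 16-fold, 81.1%, 90.2% and 22.8% were called, so a gene that did not pass is not shown to be unchanged. Samples are single libraries, and nothing in the labels says how many mice each holds. The p-values measure the spread among PDOX libraries, which differ in tumor, and Nu-NB, as 1 library, adds no estimate of spread. Intervals are exact at 95%. Named genes were all members, the 5 genes most like each member, and from each list the 3 of highest mean level, those past a threshold and, chosen after values were seen, some of those with every PDOX on one side of Nu-NB. Some genes that this rule names are not reported here. Alternatives were DESeq2, other scaling, filters, cell classes and depths, T192 and T233 summed as 1, and leaving out each PDOX.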

Additional observations from a re-analysis of the deposited data

Results flagged for a closer look

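Of 19 sets of PDOX values tested for a single outlying library by Dixon's criterion, 2 stood out, and chance gives about 1 in 20. Both were in endothelial-like cells of T233, where Trem2 was at 172 CPM beside 49.7 CPM in the next PDOX and Tyrobp at 539 CPM beside 159 CPM. The summed myeloid markers were also highest in T233 among endothelial-like cells, at 3808 CPM against a median of 694 CPM over the 7 PDOXs. Over all 7 PDOXs both genes were below the myeloid ratio in these cells (0.758 and 0.838 times).

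Among the 3 classes compared by a test (myeloid-like, astrocyte-like and endothelial-like cells), Pros1 was the 1 member with every PDOX on one side of Nu-NB in one class and on the other side in another. The other classes, each with 3 to 29 Nu-NB cells, were not screened. With 1 for a class in which every PDOX was higher than Nu-NB and -1 for a class in which every PDOX was lower, Pros1 was at -1 in myeloid-like and endothelial-like cells and at 1 in astrocyte-like cells. The Nu-NB levels rest on 130, 4 and 15 UMIs, and the difference between classes was not tested.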

How the results depend on the processing

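With 1 Nu-NB library, the number of genes called in myeloid-like cells moved with the setting, from 4 to 218 by DESeq2, 9 without a filter, 0 with classes by markers and 2 with cells of at least 500 genes, a finer clustering or T192 and T233 summed as 1. It was 0 with the unnamed S100a8-led cluster added, 9 without the border-associated macrophage-like cluster, 2 without the Cd74-led cluster and 1 in the P2ry12-led cluster alone, 4 alternatives chosen after seeing the data. Leaving out single PDOXs gave 2 to 98, with 98 without P8, 10 without T16 and 2 without T101, T192 or T233. In astrocyte-like cells 0 calls became 3 by DESeq2 and 40 without a filter, where Tyrobp was called (log2FC 4.84, adjusted p = 7.7e-05), and 0 to 19 when single PDOXs were left out (19 without P8, 1 without T192). In endothelial-like cells DESeq2 called 2 genes, and leaving out a PDOX 0.

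In myeloid-like cells Trem2, Tyrobp, Axl, Mertk and Pros1 kept their direction under all 19 alternatives, with log2FC of 0.30 to 1.05, 1.25 to 2.74, 2.17 to 4.71, -1.70 to -1.21 and -0.75 to -0.14. Under edgeR settings no member passed, with adjusted p down to 0.0231 for Axl (without P8). Gas6 changed sign without P13 (-0.055 to 0.25 when single PDOXs were left out) and with the S100a8-led cluster added (-0.0043), and in astrocyte-like cells with cells of at least 500 genes (-0.47) and with classes by markers (-0.051). Trem2 in endothelial-like cells changed sign by DESeq2 (0.054), with doublets kept (1.49) and without P8, T101, T16 or P13 (0.037 to 0.19), and was -0.51 to 0.19 when single PDOXs were left out. Causes were not tested. Members with every PDOX on one side numbered 5, and 3 with cells of at least 500 genes or the S100a8-led cluster added (without Trem2 and Pros1) or the P2ry12-led cluster alone (without Axl and Pros1). Over all cells the P3TMZ to P3 ratio moved from 0.741 to 0.921 for Tyrobp and from 1.11 to 1.37 for Trem2. Leaving out a PDOX gave 5. The difference in share of Mertk was -15.9 percentage points at 300 UMIs, -25.3 at 500 and -37.3 at 1000, and those of Gas6 at 300 UMIs (0.181 against -2.05) and of Pros1 at 1000 UMIs (1.95 against -5.05) changed sign.

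No paired analysis was possible because the labels give PDOXs no replicate numbers and Nu-NB is 1 library. Endothelial-like cells of at least 500 genes numbered under 10 in Nu-NB and could not be fitted.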
